A study of Homo sapiens with 9 samples.

Results

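Pluripotency factors and markers are represented here by 10 genes, NANOG, PRDM14, SALL4, ZFP42, DPPA2, DPPA4, DPPA5, L1TD1, USP44 and UTF1, of the 19775 genes measured. The genes were taken by name, and a probe set was taken wherever the platform annotation gave one of them and no other gene. This left 16 probe sets, at least 1 for each of the 10 genes. Where a gene had several, its brightest probe set, by the mean of all 9 arrays regardless of group, stands for it.

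The series profiled 3 established human embryonic stem cell (hESC) lines, Shef3, H14 and Shef1, during differentiation towards otic progenitors, the precursors of the sensory cells and neurons of the inner ear. The hESC group was undifferentiated cells at day 0, untreated and grown on inactivated mouse embryonic fibroblasts in KOSR medium that held bFGF at 4 ng/ml. For the DFNB group, cells were replated on a laminin coat and cultured to day 14 in DFNB (DMEM/F12, N2 and B27). The FGF3+10 group had the same 14 days and medium, to which 50 ng/ml each of FGF3 and FGF10 were added. Every group held 3 arrays, 1 per cell line, and no line was repeated within a group. The spread within a group is therefore the spread between lines, and no p-value here measures how a repeat of the same line would vary. RNA came from whole cultures, so fewer cells expressing a gene and less RNA per cell cannot be told apart.

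Values are the authors' normalised probe set levels on a log scale, read here as log2. The array median was 3.20 on every array, and levels ran from -14.39 to 13.35. The spread was larger at low levels, with a median SD within groups of 0.97 for genes averaging below 0 and 0.36 for genes at 8 or above. A level of 4 is therefore used as a floor where low values decide a difference. On the 3 Shef1 arrays the poly-A controls, bacterial transcripts spiked in to follow labelling, averaged 7.43 to 7.50, against 5.04 to 5.72 on the other 6 arrays. The ACTB 3' minus 5' difference, a measure of RNA integrity, was 0.54 to 0.69 in Shef1 and 0.08 to 0.52 in the other lines. The same measure for GAPDH did not set Shef1 apart, at 0.18 to 0.23 against 0.14 to 0.53 in the other lines. The part of labelling or RNA integrity in differences between the lines was not tested.

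Pluripotent cells are held in the undifferentiated state by a small network of transcription factors that activate one another and keep lineage genes silent. NANOG is a homeodomain protein at the core of that network, and PRDM14 and SALL4 are zinc finger factors that work with it. ZFP42, also called REX1, DPPA2, DPPA4, DPPA5, L1TD1, USP44 and UTF1 are genes expressed with the network and used as markers of the undifferentiated state. Such genes are normally shut off as cells leave pluripotency.

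After 14 days all 10 genes averaged lower than in hESC in both media, with a median log2 difference of -3.79 in DFNB and -3.70 in FGF3+10. DPPA5 alone passed the test, and it fell by 4.69 in DFNB and by 4.00 in FGF3+10, by similar amounts in every line. All its values lay below the array median, and the call was lost on leaving out any of the lines, when at most 5 of all genes were called. The other 9 genes differed widely between the lines at day 14. NANOG, PRDM14, USP44 and L1TD1 were far lower in Shef3, less so in H14, and nearest to day 0 in Shef1, where the largest difference was -2.32 for PRDM14 in DFNB.

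Across all 19775 genes, limma called 40 genes between DFNB and hESC at a Benjamini-Hochberg adjusted p below 0.05, which is 0.202% (0.086% lower). It called 35 genes, 0.177% (0.0809% lower), between FGF3+10 and hESC, and 277, 1.4% (0.642% lower), between the 6 day 14 arrays and hESC. With the cell line as replicate block these counts were 189, 115 and 612, and the count among the 10 genes stayed at 1 in each. These comparisons share the hESC arrays. On average 60.5% of all genes were lower in DFNB, 62.4% in FGF3+10 and 61.9% at day 14 as a whole. The median of all genes was -0.19 in both media, and after quantile normalisation -0.08 in DFNB and -0.06 in FGF3+10.

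In DFNB, 8 of the 10 genes had every array below every hESC array, which held for 14.3% of all genes. In FGF3+10 it was 7 of 10, against 11.3% of all genes. The 7 were NANOG, PRDM14, DPPA2, DPPA4, DPPA5, USP44 and UTF1, and L1TD1 was the further gene in DFNB. SALL4 and ZFP42 overlapped with hESC in both media. At an unadjusted p below 0.05, 4 of the 10 were lower in DFNB and 4 in FGF3+10, against 9.69% and 7.47% of all genes. Over both media together, 7 of 10 had every day 14 array below every hESC array (8.02% of all genes) and 4 of 10 an unadjusted p below 0.05 (11.6%). Compared with the hESC array of the same line, 8 of 10 were lower in both media in all 3 lines, against 17% of all genes, the exceptions being SALL4 and L1TD1. With the floor of 4, ZFP42 and DPPA5 also left this count, as ZFP42 in Shef1 and DPPA5 in every line then differed by 0.

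**Figure D1:**
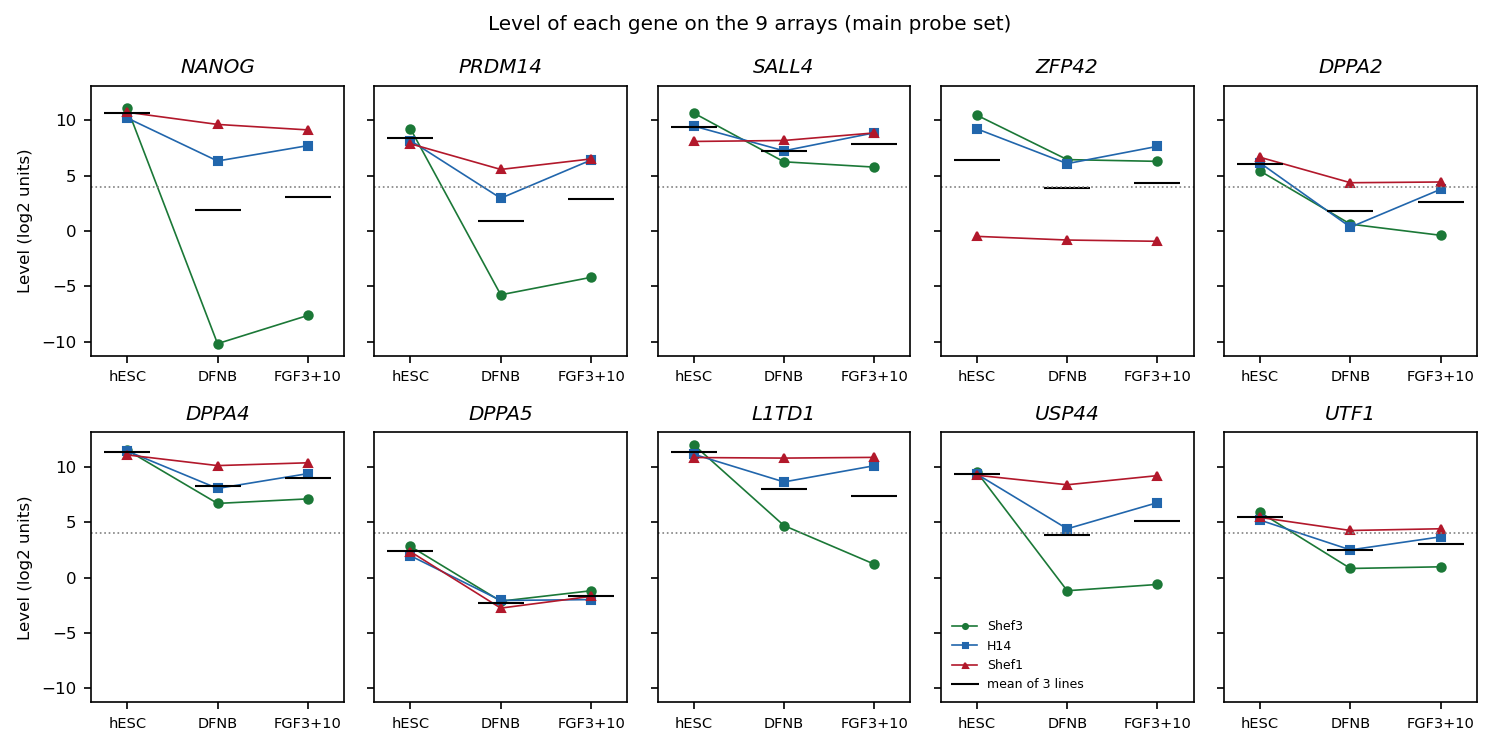
Level of each of the 10 genes (vertical axis, log2 units, main probe set) in hESC, DFNB and FGF3+10. Coloured points are single arrays, 1 per cell line, black bars are the mean of the 3 lines and the dotted line marks level 4. The hESC points of most genes lie close together and spread apart at day 14, NANOG from -10.17 in Shef3 to 9.64 in Shef1 in DFNB, while DPPA5 is lower by a similar step in all lines and ZFP42 stays below 0 in Shef1.

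Of the transcription factors, NANOG is described first, and its promoter is shown because it carries the joined POU and SOX element through which the core factors regulate it. In RefSeq (GRCh38.p14) the 300 bases from 250 before to 50 after the NANOG start lie at chr12:7789152-7789451 on the plus strand. The capitals mark the joined element, TTTGCAT followed by any base, ACAA, any base and G, which runs from 120 to 107 bases before the start.

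NANOG promoter: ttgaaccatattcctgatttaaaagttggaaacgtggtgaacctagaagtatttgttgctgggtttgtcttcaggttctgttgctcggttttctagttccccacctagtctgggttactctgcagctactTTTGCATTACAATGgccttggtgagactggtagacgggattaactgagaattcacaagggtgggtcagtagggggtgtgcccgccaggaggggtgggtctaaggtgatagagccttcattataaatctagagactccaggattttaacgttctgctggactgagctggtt

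Searched on both strands, this joined element occurred in 4 of 35116 promoters of the same length, 0.0114%. RefSeq's table held a promoter for 7 of the 10 genes, not for PRDM14, SALL4 and USP44, and among these 7 it occurred in NANOG. Inside it lie the octamer core TTTGCAT, found in 4.46% of promoters, and the SOX core ACAATG, found in 10.8%, and among the 7 both were again in NANOG alone. The other SOX form ACAAAG, in 16.1% of promoters, occurred in ZFP42, DPPA2 and L1TD1. The motif GGTCTCTAA of PRDM14, in 0.159% of promoters, occurred in none of the 7. A match describes letters and does not show binding.

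NANOG stood at 11.10 in Shef3, 10.21 in H14 and 10.73 in Shef1 in the hESC group. In DFNB the levels were -10.17, 6.33 and 9.64 for the same lines in that order. In FGF3+10 the levels were -7.62, 7.72 and 9.14. Every day 14 array lay below every hESC array, and the difference from the line's own hESC array in DFNB ran from -1.10 in Shef1 to -21.27 in Shef3. The mean difference from hESC was -8.75 ± 5.58 (SE, n = 3 and 3 arrays, limma adjusted p = 0.469) in DFNB. In FGF3+10 it was -7.60 ± 5.58 (limma adjusted p = 0.627).

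The Shef3 readings of NANOG at day 14 lie far below the array median, where a log difference has little meaning. With values below 4 set to 4, the day 14 difference averaged over both media came to -7.10, -3.19 and -1.35 for Shef3, H14 and Shef1, the same order of lines. The second NANOG probe set read 8.28, 7.81 and 8.32 in the hESC arrays of Shef3, H14 and Shef1, in that order. It read -0.93, 3.68 and 6.53 in DFNB and 0.85, 4.83 and 5.71 in FGF3+10. It gave the same order of lines at day 14 in both media. NANOG has pseudogene copies, and signal from them cannot be told apart from that of NANOG on the array.

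PRDM14, which helps to keep the core factors active in human embryonic stem cells, read 9.24 in Shef3, 8.18 in H14 and 7.89 in Shef1 at day 0. In DFNB it read -5.75, 2.97 and 5.57, and in FGF3+10 -4.18, 6.42 and 6.52, in the same order of lines. No day 14 array reached the lowest hESC array, and H14 and Shef1 were nearly level in FGF3+10. The mean difference was -7.50 ± 3.39 (limma adjusted p = 0.329) in DFNB and -5.51 ± 3.39 (limma adjusted p = 0.561) in FGF3+10. With the floor of 4, the day 14 groups together differed by -3.35 from hESC (limma adjusted p = 0.0401), and each medium alone missed the threshold.

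SALL4, a zinc finger factor that stays active in some early lineages, behaved differently in Shef1. It read 10.67 in Shef3, 9.49 in H14 and 8.10 in Shef1 at day 0. In DFNB it read 6.26, 7.25 and 8.19, and in FGF3+10 5.78, 8.88 and 8.87, in the same order. The day 14 levels of Shef3 were below every hESC array, while those of Shef1 were at or above its own hESC array, by 0.09 in DFNB and 0.77 in FGF3+10. After quantile normalisation the 0.09 became -0.00, so the sign in DFNB turns with the scaling, and the 0.77 became 0.67. The mean difference from hESC was -2.19 ± 0.98 (limma adjusted p = 0.324) in DFNB and -1.58 ± 0.98 (limma adjusted p = 0.563) in FGF3+10.

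The 3 other SALL genes, SALL1, SALL2 and SALL3, gave day 14 differences of -0.93, -0.84 and -1.95, none called. Their mean level in Shef1 was above that line's hESC array by 0.40 in DFNB and 0.92 in FGF3+10. In Shef3 it was lower, by -2.23 and -2.33, and in H14 by -2.84 and -1.36.

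Among the DPPA genes, DPPA2 and DPPA4 are neighbours on chromosome 3 and encode SAP domain proteins that bind chromatin together. DPPA4 read 11.51 in Shef3, 11.43 in H14 and 11.08 in Shef1 at day 0. The DFNB arrays read 6.70, 8.05 and 10.12, and in FGF3+10 7.11, 9.39 and 10.37. The hESC arrays were tightly grouped (SD 0.23) and lay above all day 14 arrays, with Shef3 lowest and Shef1 highest in both media. The mean difference was -3.05 ± 0.98 (limma adjusted p = 0.207) in DFNB and -2.38 ± 0.98 (limma adjusted p = 0.381) in FGF3+10.

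DPPA2 gave 5.42, 6.15 and 6.67 at day 0 in Shef3, H14 and Shef1, and 0.63, 0.36 and 4.37 in DFNB and -0.38, 3.78 and 4.44 in FGF3+10. Every day 14 array was below every hESC array, and at day 0 the order of lines was the reverse of that of DPPA4. DPPA2 differed from hESC by -4.29 ± 1.40 (limma adjusted p = 0.214) in DFNB and -3.47 ± 1.40 (limma adjusted p = 0.371) in FGF3+10. With the floor of 4 the differences shrank to -1.96 (limma adjusted p = 0.0325) and -1.93 (limma adjusted p = 0.0442) and passed, with 4 of the 6 day 14 values set to the floor itself.

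DPPA5, an RNA-binding KH domain protein, was called in every comparison with hESC. It read 2.82 in Shef3, 1.97 in H14 and 2.34 in Shef1 at day 0. The DFNB arrays read -2.13, -2.07 and -2.76, and in FGF3+10 -1.19, -1.99 and -1.70. The groups were far apart and each was narrow, with SDs of 0.43, 0.38 and 0.40. DPPA5 differed from hESC by -4.69 ± 0.36 (limma adjusted p = 0.00446) in DFNB, at rank 3 of all genes by p. In FGF3+10 it was -4.00 ± 0.36 (limma adjusted p = 0.0123).

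All 9 DPPA5 values lie below 4 and below the array median, so with the floor the gene could not be tested. Without any 1 of the cell lines the call was lost in DFNB, with limma adjusted p of 0.185 (Shef3 left out), 0.237 (H14) and 0.0992 (Shef1). In FGF3+10 it was lost in the same way, at 0.215, 0.252 and 0.127, and also without the hESC array of Shef1 (0.0591) or the FGF3+10 array of H14 (0.0524). Without a whole line at most 5 of all genes were called in either medium. DPPA5 then still differed from hESC by -4.49 to -5.02 in DFNB. The third DPPA4 probe set was also dim. It read 1.96, 1.37 and 2.94 at day 0 in Shef3, H14 and Shef1, and -1.98 to -0.63 on the 6 day 14 arrays. Its day 14 difference was -3.45 ± 0.44, with a limma adjusted p of 0.0231 over all probe sets, but 0.0654 in DFNB alone and 0.0643 in FGF3+10 alone, where DPPA5 passed in both. The second DPPA4 probe set instead kept the order of the main one, with 3.55, 5.47 and 8.54 in DFNB from 9.56, 9.64 and 9.98 at day 0.

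L1TD1, an RNA-binding protein derived from a LINE-1 element, read 12.00 in Shef3, 11.15 in H14 and 10.85 in Shef1 at day 0. The DFNB arrays read 4.70, 8.64 and 10.80, and in FGF3+10 1.21, 10.11 and 10.86. Shef1 was level with day 0, at differences of -0.05 in DFNB and 0.01 in FGF3+10, while those of Shef3 were -7.30 and -10.79. With the floor of 4 the -10.79 became -8.00. L1TD1 differed from hESC by -3.29 ± 2.47 (limma adjusted p = 0.544) in DFNB and -3.94 ± 2.47 (limma adjusted p = 0.564) in FGF3+10. The second L1TD1 probe set also stayed level in Shef1, at 7.51, 7.46 and 7.36 in hESC, DFNB and FGF3+10, and read 8.70, -0.44 and -4.59 in Shef3.

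USP44, a deubiquitinase that acts on histone H2B, had the narrowest hESC values of the 10 genes, 9.53 in Shef3, 9.34 in H14 and 9.25 in Shef1 (SD 0.14). In DFNB it read -1.19, 4.41 and 8.39, and in FGF3+10 -0.62, 6.77 and 9.21. All day 14 arrays were below all hESC arrays, but the FGF3+10 array of Shef1 differed from its own day 0 array by no more than -0.03. The mean difference was -5.50 ± 2.78 (limma adjusted p = 0.374) in DFNB and -4.25 ± 2.78 (limma adjusted p = 0.582) in FGF3+10. With the floor of 4 these became -3.77 (limma adjusted p = 0.22) and -2.71 (limma adjusted p = 0.416).

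UTF1, a chromatin-bound regulator of the undifferentiated state, read 5.89 in Shef3, 5.19 in H14 and 5.43 in Shef1 at day 0. In DFNB it read 0.82, 2.50 and 4.25, and in FGF3+10 0.97, 3.68 and 4.41. The groups did not overlap, and Shef1 was the only line still above 4 at day 14. The mean difference was -2.98 ± 1.02 (limma adjusted p = 0.233) in DFNB and -2.48 ± 1.02 (limma adjusted p = 0.381) in FGF3+10. With the floor of 4 these became -1.42 (limma adjusted p = 0.0306) and -1.36 (limma adjusted p = 0.0442), with all 4 values of Shef3 and H14 at the floor.

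ZFP42, a zinc finger protein and one of the most used markers of human embryonic stem cells, differed strongly between the lines. In Shef3 and H14 it was also lower at day 14. Its main probe set read 10.47 in Shef3, 9.23 in H14 and -0.48 in Shef1 at day 0. It read 6.46, 6.10 and -0.81 in DFNB and 6.30, 7.66 and -0.92 in FGF3+10. Shef1 was thus below 0 already in the undifferentiated group, 9.71 under the lower of the other lines, and differed from day 0 by -0.33 in DFNB and -0.45 in FGF3+10. In Shef3 the differences from its own hESC array were -4.01 in DFNB and -4.17 in FGF3+10, and in H14 -3.14 and -1.58. The mean difference from hESC was -2.49 ± 3.40 (limma adjusted p = 0.751) in DFNB and -2.06 ± 3.40 (limma adjusted p = 0.849) in FGF3+10. It is a mean over lines that started at different levels, and the SE holds that spread. With the line as replicate block the limma adjusted p was 0.156 in DFNB and 0.262 in FGF3+10.

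The other ZFP42 probe sets gave the same picture. The second read 8.49 in Shef3, 7.24 in H14 and -4.37 in Shef1 at day 0, and between -4.06 and -3.10 in Shef1 at day 14. The third read 8.74, 7.24 and -3.65 at day 0, and -4.40 and -6.08 in Shef1 at day 14. On all 3, every Shef1 array was below 0 and every array of Shef3 and H14 above it.

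In a test of the line's level across the groups, added after these values were seen, ZFP42 was the only 1 of the 10 genes called (F = 76.6, limma adjusted p = 0.0232), among 91 of all genes, 0.46%, a count of 16 to 26 without any 1 of the day 14 arrays. By probe set the adjusted p was 0.0194, 0.051 and 0.0479 for the main, the second and the third. The call was lost with the floor of 4 (limma adjusted p = 0.087), and without single day 14 arrays of H14 or Shef1 or the DFNB array of Shef3, at 0.0694 to 0.132. At day 0, 3927 genes stood at 8 or above in Shef3 and H14, and 3 of these were below 4 on all Shef1 arrays, ZFP42 among them. Of the other 9 genes, 5 were also lowest in Shef1 at day 0, but by far less: DPPA4 was 11.08 against 11.43 and 11.51, and USP44 9.25 against 9.34 and 9.53.

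The ZFP42 promoter is shown for its CG pairs, and a link to the difference between lines was not tested. It lies at chr4:187995521-187995820 on the plus strand in RefSeq (GRCh38.p14), and the capitals mark every CG.

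ZFP42 promoter: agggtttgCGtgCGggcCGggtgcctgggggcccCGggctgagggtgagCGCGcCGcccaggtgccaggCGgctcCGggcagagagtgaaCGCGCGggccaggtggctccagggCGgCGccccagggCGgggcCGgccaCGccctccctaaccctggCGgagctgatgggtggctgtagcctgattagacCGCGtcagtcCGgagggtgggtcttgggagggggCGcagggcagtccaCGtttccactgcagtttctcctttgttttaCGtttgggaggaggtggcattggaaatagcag

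The window holds 24 CG pairs at 69.3% G and C, against a median of 14 CG pairs and 58.7% over all 35116 promoters. Of all promoters, 66.1% had fewer CG pairs than ZFP42 and 91.3% fewer than UTF1. Among the other 6 genes with a promoter in the table, UTF1 had 39 CG pairs, DPPA5 20, L1TD1 14, DPPA2 7, and NANOG and DPPA4 5 each. These counts describe sequence, and no methylation was measured here.

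**Figure D2:**
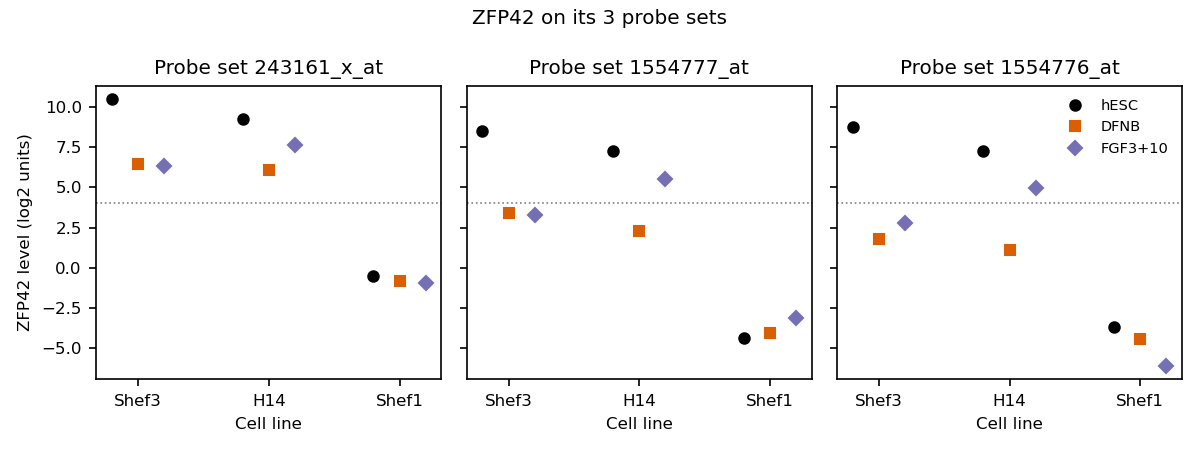
Level (vertical axis, log2 units) of each of the 3 ZFP42 probe sets by cell line (horizontal axis), with 1 point per array, its shape and colour giving the group, and a dotted line at level 4. The Shef1 points are below 0 in all groups on all 3 probe sets, from -0.48 down to -6.08, while Shef3 and H14 start between 7.24 and 10.47 and are lower at day 14.

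The order of the lines was compared over all 10 genes. Averaged over both media, 9 of 10 genes were furthest below their own hESC array in Shef3 and least in Shef1, an order that 30.7% of all genes showed. With the floor of 4 it was 8 of 10, against 23%. DPPA5 was the exception in both counts, and DPPA2 joined it with the floor. The median over the 10 genes in DFNB came to -5.01, -3.63 and -1.03 for Shef3, H14 and Shef1. In FGF3+10 it was -5.36, -1.90 and -0.87, and the medians of all genes in the same lines lay between -0.39 and 0.06.

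At day 0, 9, 9 and 8 of the 10 genes stood at 4 or above in Shef3, H14 and Shef1. In DFNB it was 4, 6 and 8, and in FGF3+10 3, 7 and 8. Shef1 thus kept its 8 genes at 4 or above through both media, the missing genes being DPPA5 and ZFP42.

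Whether the day 14 difference itself varied between lines was tested with the 2 day 14 arrays of each line as its only spread, although these differ in medium. No gene was called by limma out of 19775 (0%), and 8 of the 10 genes had an unadjusted p below 0.05, against 19.4% of all genes. NANOG gave the largest F of the 10 (F = 73, limma adjusted p = 0.203), followed by USP44 (F = 23.3, limma adjusted p = 0.203). DPPA2 (F = 1.11) and DPPA5 (F = 0.25) were the 2 without an unadjusted call. NANOG passed when the spread was fitted with an intensity trend (limma adjusted p = 0.0462), where 8 genes in all were called. With the floor of 4, DPPA2 (limma adjusted p = 0.0244), L1TD1 (0.0421) and UTF1 (0.0477) were called among 1744 genes, in a fit where pairs of values both set to 4 have no spread.

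**Figure D3:**
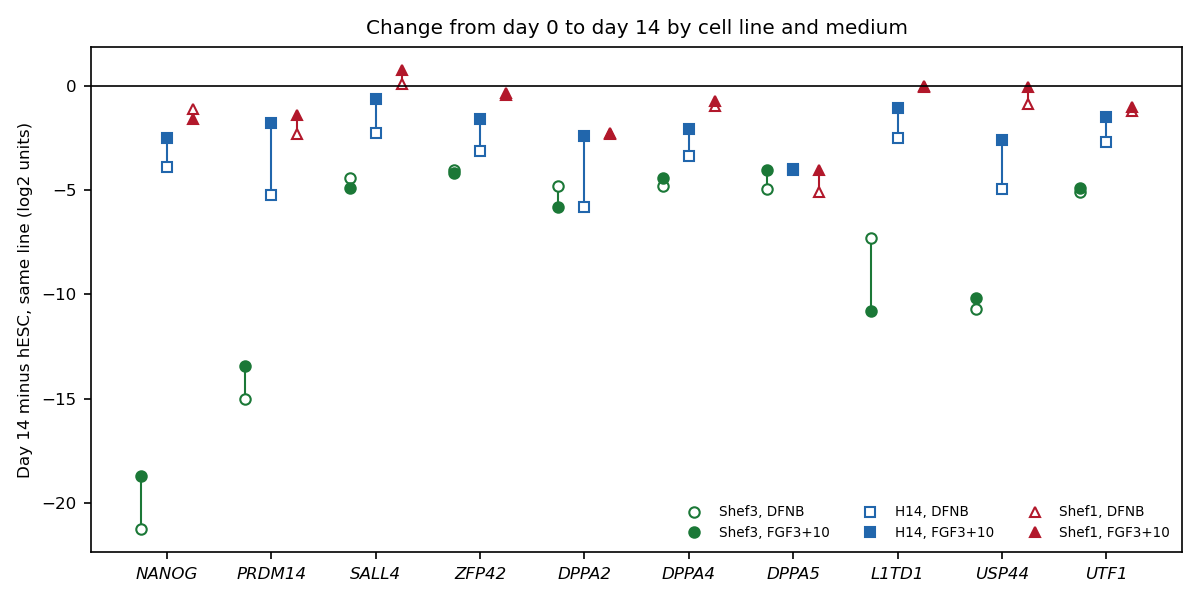
Difference of each gene from the hESC array of the same cell line (vertical axis, log2 units) in DFNB (open points) and FGF3+10 (filled points), main probe set, with colour and shape for the line. Shef3 points lie lowest for most genes, NANOG at -21.27 in DFNB, and Shef1 points highest for all genes but DPPA5, with SALL4 in Shef1 on the positive side at 0.09 and 0.77 and DPPA5 at about the same place in all lines.

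The next comparison was FGF3+10 against DFNB, which asks what the added FGF3 and FGF10 did. No gene of the 19775 was called by limma (0%), and 300 had an unadjusted p below 0.05 (1.52%), none of them among the 10. The 10 genes had a median difference of 0.68, with 9 of 10 higher in FGF3+10 on average and L1TD1 lower (49.5% of all genes were lower), a sign that turned with the floor of 4 (-0.65 to 0.28). PRDM14 was highest at 1.99 and DPPA5 had the smallest unadjusted p (0.0911), with limma adjusted p of 1 for both.

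The difference between the media was uneven over the lines. In H14 all 10 genes were higher with FGF3 and FGF10, against 55.5% of all genes, by a median of 1.51. The range there ran from 0.08 for DPPA5 to 3.45 for PRDM14 and 3.42 for DPPA2. In Shef3 it was 6 of 10 against 39.9% (median 0.28), and in Shef1 8 of 10 against 53% (median 0.20). PRDM14, DPPA4, DPPA5, USP44 and UTF1 were higher in all 3 lines, 5 of 10 against 9.4% of all genes. With the floor of 4, DPPA4 alone of these stayed higher in all 3 lines, by 0.41, 1.34 and 0.25 in Shef3, H14 and Shef1. The difference was then 0 in Shef3 for NANOG, PRDM14, DPPA2, USP44 and UTF1. It was 0 in H14 for DPPA2 and UTF1, and in every line for DPPA5. Each of these differences rests on 1 array per line and medium, so no error can be given for a single line.

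Other genes of the pluripotent state were read from lists chosen by gene name, with earlier results of these data known. Of 22 primed pluripotency genes, those of the state of human embryonic stem cells, 19 were measured. All 19 averaged lower in both media, against 60.5% of all genes in DFNB and 62.4% in FGF3+10. The median of the 19 was -2.53 in DFNB and -2.19 in FGF3+10. None was called, and 7 and 4 had an unadjusted p below 0.05. Their mean level differed from hESC by -5.73 and -5.62 in Shef3, -3.20 and -1.87 in H14, and -0.47 and -0.51 in Shef1, in DFNB and FGF3+10 in turn. This is the order of lines seen for the 10 genes. These means were taken without the floor, and in Shef3 8 of the 19 genes were at 4 or above in each medium.

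The 3 primed genes furthest from hESC at day 14 with the floor were LEFTY1, GAL and POLR3G, at -5.37, -4.19 and -3.22. The values that follow are without the floor. LEFTY1, an inhibitor of NODAL signalling, read 10.52, 9.18 and 11.20 at day 0 in Shef3, H14 and Shef1, and -1.43, 3.94 and 7.54 in DFNB. Its day 14 difference was -7.23 ± 1.91 (limma adjusted p = 0.110). GAL, the neuropeptide galanin, gave -4.58 ± 1.39 (limma adjusted p = 0.148), and POLR3G, a subunit of RNA polymerase III, -3.91 ± 1.5 (limma adjusted p = 0.227). LEFTY1 was below its day 0 level in Shef1 as well, reading 6.02 there in FGF3+10.

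Of 10 naive pluripotency factors 8 were measured, with a median of -0.41 in DFNB and -0.43 in FGF3+10. DNMT3L, a cofactor of the de novo DNA methyltransferases, was called in both. It read 4.87, 5.47 and 7.09 at day 0 in Shef3, H14 and Shef1, -4.50, -3.92 and -2.41 in DFNB and -3.97, -3.38 and -3.10 in FGF3+10. It fell by 9.36 at day 14 (SE 0.60, limma adjusted p = 0.00133), and every day 14 array was below every hESC array. All 6 day 14 values lie below 4, and with the floor the day 14 difference of DNMT3L was -1.81. KLF4 (-0.95 ± 0.32, limma adjusted p = 0.177) and KLF5 (0.43 ± 0.50, limma adjusted p = 0.687), both Krüppel-like factors, were the next by size of the day 14 difference with the floor of 4, at which their values are the same.

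Outside the 10 genes, those most like NANOG over the 9 arrays, with the floor of 4, were POLR3G (r = 0.99), POU5F1P4 (r = 0.99), PNP (r = 0.98), POU5F1P3 (r = 0.98) and BCCIP (r = 0.98), among 8523 genes with an hESC mean of at least 6. These are descriptions over 9 arrays that share lines and groups. POU5F1P3 and POU5F1P4 are near-identical copies of POU5F1, and the array cannot tell which copy gave the signal. POU5F1P3 read 11.69, 11.35 and 10.99 at day 0 and -7.67, 7.58 and 10.11 in DFNB, in Shef3, H14 and Shef1. Among the 10 genes, the correlation with NANOG was 0.99 for DPPA4, 0.96 for USP44 and L1TD1, 0.90 for PRDM14, 0.87 for SALL4, 0.74 for DPPA2 and 0.12 for ZFP42. By rank among the 8523 genes, NANOG itself included, DPPA4 stood at 4, USP44 at 61, L1TD1 at 122 and PRDM14 at 761. SALL4 stood at 1005, DPPA2 at 2265 and ZFP42 at 5154, so many other genes were as like NANOG as these. DPPA5 and UTF1 were below the hESC mean asked for.

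Markers of other cell types were read beside the 10 genes. Of 14 neural progenitor genes 13 were measured, with medians of 2.69 in DFNB and 2.53 in FGF3+10. In each medium 10 averaged higher and 3 lower (NES, FABP7 and NEUROG2). At day 14, 3 were called higher (SIX3, SIX6 and MAP2), where 150 of all 19775 genes were. With the floor of 4 the day 14 differences of these 3 were 3.32, 1.68 and 2.61. The mean level of the neural list was above hESC by 3.24 and 3.51 in Shef3, 1.22 and 1.94 in H14, and 3.26 and 3.38 in Shef1. This mean was taken without the floor, and at day 0 only 3, 6 and 5 of the 13 genes were at 4 or above in these lines. Of 14 otic and preplacodal genes 11 were measured, with medians of 2.54 and 2.68. In each medium 8 averaged higher and 3 lower (PAX8, SIX4 and TBX1). EYA2, DLX5, DLX6 and TFAP2A were called higher at day 14. With the floor of 4 their day 14 differences were 1.47, 0.58, 0.30 and 2.61. The mean level of the otic list was above hESC by 1.80 to 2.46 in DFNB and 1.97 to 2.34 in FGF3+10 over the 3 lines. In Shef1, 8 of the 10 pluripotency genes stayed at 4 or above in both media. The otic list there was 2.14 above hESC in DFNB and 1.97 in FGF3+10. It was 2.46 and 2.15 above in Shef3, and 1.80 and 2.34 in H14. These means too were taken without the floor, with 4 of the 11 genes at 4 or above on each hESC array.

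Other lists moved differently. All 8 measured endoderm genes averaged lower in both media (medians -3.08 and -3.38), and all 8 were at 4 or above on every hESC array. The 10 mesenchyme genes were at 4 or above on all 9 arrays, with a median of 1.10 in DFNB and -0.20 in FGF3+10. Their mean level differed from hESC by 1.97, 1.81 and 0.25 in DFNB and by 1.43, 0.54 and -1.44 in FGF3+10 for Shef3, H14 and Shef1, largest in Shef3, where the mean level of the 10 pluripotency genes was lowest in both media. All 10 mesenchyme genes averaged lower in FGF3+10 than in DFNB (median -1.19, none called), against 49.5% of all genes. Of the 10 pluripotency genes 9 averaged higher there, with medians of 0.28, 1.51 and 0.20 in Shef3, H14 and Shef1. These were thus largest in H14, while the mesenchyme mean moved most in Shef1. The 10 germ cell genes, read because DPPA and PRDM genes are also active in germ cells, had medians of -0.06 and -0.15, and 2 to 4 of them were at 4 or above on any array. Of the 7 trophoblast genes 0 to 2 were at 4 or above on any array. The part of other cell types in the levels of the 10 genes was not tested.

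**Figure D4:**
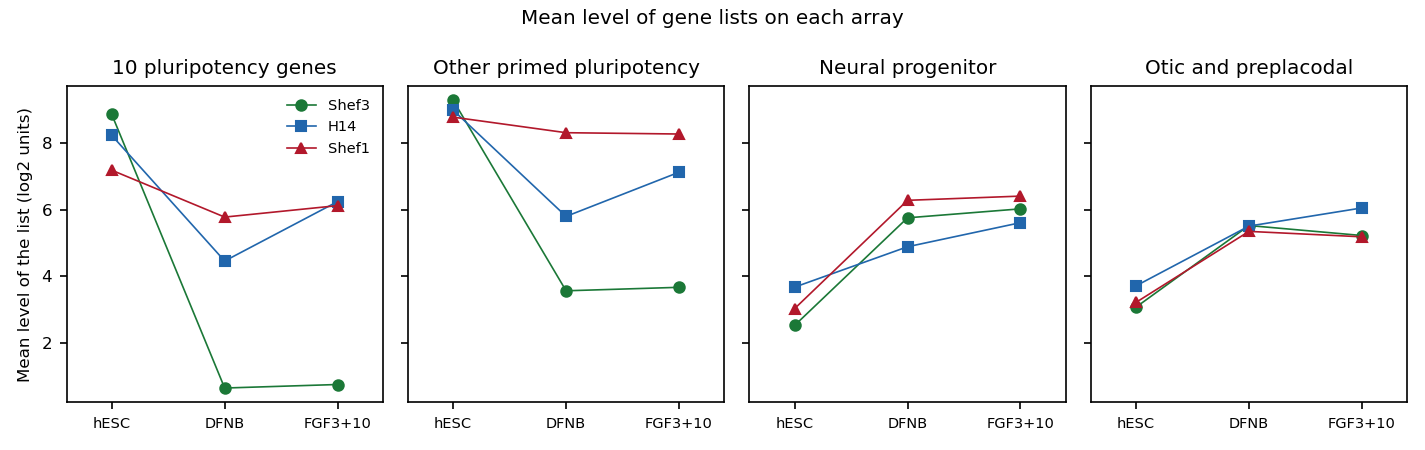
Mean level (vertical axis, log2 units) of the 10 pluripotency genes, 19 primed pluripotency genes, 13 neural progenitor genes and 11 otic and preplacodal genes on each array, by group, with 1 point per cell line. No floor was applied to these means. The primed genes go from 9.29, 8.99 and 8.78 at day 0 to 3.56, 5.80 and 8.31 in DFNB in Shef3, H14 and Shef1, and the neural progenitor genes from 2.52, 3.67 and 3.02 to 5.75, 4.88 and 6.28.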

How the data were processed

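Total RNA (200 ng) from 9 cultures was labelled with biotin and hybridised to Affymetrix arrays, per the labels' protocols. The deposited values are the authors' normalised log values, taken as log2. Neither the log base nor the method of normalisation is given in the sources used here. Of 54675 probe sets, 41091 had 1 gene symbol, 1801 several and 11721 none, beside 62 controls. Symbols were updated through Entrez identifiers for 41037, and the brightest probe set per gene left 19775 genes. Group means were fitted to all 9 arrays with limma 3.58.1 (R 4.3.3, lmFit and eBayes), adjusted by Benjamini-Hochberg over all genes and called below 0.05. The fit was tested on simulated data. The cell line is the same in every group and pairs the arrays. For FGF3+10 and DFNB, deviations of the same line correlated at 0.33 to 0.71, and for DFNB and hESC at 0.09 to 0.34. Alternatives were the line as replicate block, quantile normalisation, a floor of 4, a filter on dim genes, the mean of probe sets, an intensity trend, fewer arrays, and leaving out each array and line. The genes named were the 10 genes, called or else the 3 furthest genes of each pluripotency list, and the 5 most like NANOG. The 10 genes and all lists were chosen with earlier results of these data known. Promoters came from RefSeq (GRCh38.p14).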

Additional observations from a re-analysis of the deposited data

Results flagged for a closer look

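SALL4 differed in direction between the lines. Against the hESC array of the same line it was higher in Shef1, by 0.0879 in DFNB and 0.772 in FGF3+10. It was lower in Shef3, at -4.41 and -4.89, and in H14, at -2.24 and -0.61. After quantile normalisation the 0.0879 became -0.00088, so that sign turns with the scaling. The mean level of SALL1, SALL2 and SALL3 was also above hESC in Shef1, by 0.40 in DFNB and 0.92 in FGF3+10. For SALL4 the difference between the lines in the day 14 change gave F = 11.31 (limma adjusted p = 0.211) and is not called.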

How the results depend on the processing

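Under the alternatives other than leaving out arrays, all 10 genes stayed lower than hESC in both media wherever they were tested. The cell line as replicate block, quantile normalisation, the mean of probe sets and the intensity trend changed no call of the 10 genes against hESC, nor did the block for FGF3+10 against DFNB (0 genes). Without dim genes 0 were called in DFNB, in FGF3+10 and at day 14, since DPPA5 is then not tested. With the floor of 4, which also leaves DPPA5 untested, 2, 2 and 3 were called, and with the floor and the replicate block together, added after seeing the data, again 2, 2 and 3. The lines' day 14 differences gave 3 genes with the floor and 1 with the intensity trend, and the lines' levels gave 0 with the floor. Leaving out arrays or lines, 0 to 1 genes were called in DFNB, in FGF3+10, at day 14 and for the lines' levels, and 0 to 0 for FGF3+10 against DFNB and for the lines' day 14 differences. At day 14, DPPA5 was lost without line Shef3 (limma adjusted p = 0.118), H14 (0.131) or Shef1 (0.062).

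Counts over all genes, 40 in DFNB, 35 in FGF3+10 and 277 at day 14, were 183, 123 and 479 with the floor, 177, 94 and 487 without dim genes, and 153, 76 and 436 with the intensity trend. They were 26 and 15 with only the arrays of both groups, and 426, 226 and 967 with floor and block. They were 0 to 72, 0 to 32 and 1 to 238 on leaving out arrays or lines, and at most 5 without any whole line. The 91 genes differing in level between lines were 58 after quantile normalisation, 468 with the floor, 456 without dim genes, 217 with the mean of probe sets, 598 with the intensity trend, and 16 to 26 on leaving out any 1 day 14 array. The cause was not tested.

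FGF3+10 against DFNB turned sign for L1TD1 with the floor, alone or with the block (0.28). Leaving out arrays or lines gave -4.90 to 6.5 for NANOG, -1.35 to 5.54 for PRDM14, -0.47 to 2.32 for DPPA2, -0.13 to 1.59 for DPPA4, -2.39 to 2.44 for L1TD1, -1.28 to 4.12 for USP44, -0.36 to 1.52 for UTF1 and -1.93 to 3.06 for ZFP42. Against hESC, FGF3+10 gave -2.75 to 0.0797 for SALL4 and -5.50 to 0.57 for ZFP42. Values below 4, near or under the array median, limit what can be said of DPPA5, DPPA2 and UTF1. They also limit the size of the Shef3 differences of NANOG, PRDM14 and USP44, that of L1TD1 in FGF3+10, and ZFP42 in Shef1.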

Other observations

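Besides ZFP42, the genes at 8 or above in hESC Shef3 and H14 and below 4 on all Shef1 arrays were HEPH and ZNF667-AS1, named after their values were seen. HEPH, a copper-dependent iron oxidase, read 8.56 in Shef3, 9.62 in H14 and 0.36 in Shef1 at day 0, and 9.46, 9.21 and 0.25 in DFNB. ZNF667-AS1, an antisense RNA, read 8.25, 8.17 and -3.38 at day 0, and 8.02, 8.60 and -3.99 in DFNB. Unlike ZFP42, both stayed near their day 0 level in Shef3 and H14.

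RefSeq places FAT1 and TRIML2 as the coding neighbours of ZFP42. TRIML2, singled out after the values were seen, read 6.38 in Shef3, 3.45 in H14 and 5.26 in Shef1 at day 0, so that Shef1 lay between the other lines (limma adjusted p = 0.732 for the line's level).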
